A study of Sus scrofa with 18 samples.

Results

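The beta subunit genes of the sodium-potassium ATPase were followed through the development of the fetal pig brain. Members were chosen by name, as the rows of the gene table called ATP1B1, ATP1B2 or ATP1B3. Of these 3 beta subunits, 2 were found among the 31908 genes of the table, ATP1B1 and ATP1B2. ATP1B3 has no row under its own name. Its RefSeq locus is covered by a gene model without a symbol, ENSSSCG00000011676, which was used in its place and is called the ATP1B3 locus model here.

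The data are counts of RNA-seq reads of whole brains from 18 fetuses of domestic pigs, taken at gestation day (GD) 45, 60 or 90, with 3 females and 3 males at each day. The mothers were Landrace x Large White gilts inseminated from the line LR-M6, and nothing was given to any group. Within a day, the 6 fetuses form 3 pairs of a female and a male with the same litter size, and these pairs were taken as littermates, although no label names a mother. No mark of batch is given in the labels. Gene counts per library summed to between 15118843 and 19729783 (median 16413097), and chromosome Y counts matched the sex label in 18 of 18 libraries.

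The sodium-potassium ATPase exports sodium and imports potassium at the cost of ATP, and so holds the ion gradients that neurons need to fire and astrocytes need to clear potassium and glutamate. The catalytic alpha subunit carries the ion and ATP sites. The beta subunit is a glycoprotein that crosses the membrane a single time and is needed to fold the alpha subunit and bring it to the cell surface. ATP1B1 encodes the widespread beta 1 subunit, ATP1B2 encodes beta 2, which is also known as the adhesion molecule on glia, and ATP1B3 encodes beta 3. Small membrane proteins of the FXYD family tune the pump.

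On the Sscrofa11.1 assembly, ATP1B1 (ENSSSCG00000006296) lies on the minus strand of chromosome 4, at 81911558 to 81997714 in the deposited annotation. ATP1B2 (ENSSSCG00000017951) lies on the plus strand of chromosome 12, at 52925693 to 52932637. The ATP1B3 locus model lies on the plus strand of chromosome 13, at 82680497 to 82759966, and covers 96.6% of the RefSeq exon bases of ATP1B3. The 250 bases before the RefSeq start of each gene are shown because ATP1B1 and ATP1B2 rose over the same days while the ATP1B3 locus model had no called change. They were read from the RefSeq genome sequence of Sscrofa11.1 on the strand of the gene, at chr4:81937016-81937265 (minus) for ATP1B1, chr12:52925447-52925696 (plus) for ATP1B2 and chr13:82680192-82680441 (plus) for ATP1B3. Capitals mark each GC box, GGGCGG or its reverse complement CCGCCC.
ATP1B1: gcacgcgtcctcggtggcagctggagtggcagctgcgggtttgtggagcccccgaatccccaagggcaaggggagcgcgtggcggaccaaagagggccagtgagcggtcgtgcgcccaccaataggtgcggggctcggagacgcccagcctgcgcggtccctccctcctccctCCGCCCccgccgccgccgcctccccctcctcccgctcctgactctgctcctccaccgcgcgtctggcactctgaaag
ATP1B2: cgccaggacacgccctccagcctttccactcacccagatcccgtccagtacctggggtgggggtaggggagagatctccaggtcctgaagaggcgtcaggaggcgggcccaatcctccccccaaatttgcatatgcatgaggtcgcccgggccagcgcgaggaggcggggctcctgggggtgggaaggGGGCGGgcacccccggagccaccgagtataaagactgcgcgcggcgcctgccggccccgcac
ATP1B3: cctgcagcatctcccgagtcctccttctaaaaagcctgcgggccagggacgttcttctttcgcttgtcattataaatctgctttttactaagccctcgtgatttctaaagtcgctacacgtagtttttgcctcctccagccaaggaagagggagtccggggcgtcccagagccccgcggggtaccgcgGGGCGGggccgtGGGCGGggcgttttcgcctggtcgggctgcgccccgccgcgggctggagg

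All 3 windows are rich in G and C, with a GC content of 72.4% for ATP1B1, 69.6% for ATP1B2 and 62.4% for ATP1B3, against a median of 57.6% over 19531 promoters of protein-coding RefSeq genes of the same length. Searched on both strands, the GC box was found 1 time for ATP1B1, 1 time for ATP1B2 and 2 times for ATP1B3, and it occurs in 45.9% of all these promoters. TATAAA was found in the windows of ATP1B2, from base -36, and ATP1B3, from base -180, and occurs in 9.77% of the promoters. CCAAT was found for ATP1B1 from base -132 and for ATP1B2 from base -142, and not for ATP1B3, with 31.9% of the promoters holding it. TGACGTCA was found in none of the 3 windows and occurs in 1.7% of the promoters. These letters are a description of the windows and not of bound sites.

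ATP1B1 was the most abundant beta subunit gene by FPKM, that is CPM divided by the gene length in kilobases, where CPM is the read count scaled to the total gene count of the library. In females it had 251, 277 and 199 CPM at GD45, 380, 343 and 303 CPM at GD60, and 803, 843 and 848 CPM at GD90. In males it had 258, 232 and 73.0 CPM at GD45, 385, 293 and 248 CPM at GD60, and 760, 896 and 839 CPM at GD90. Every GD90 library lay above every GD60 library, whereas the GD45 and GD60 libraries overlapped, since 3 GD45 libraries were above the lowest GD60 library. The lowest value belongs to male GD45 replicate 17, which had 1108 reads on the gene.

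ATP1B2 rose in steps at both intervals. In females it had 122, 116 and 98.7 CPM at GD45, 185, 161 and 208 CPM at GD60, and 474, 466 and 471 CPM at GD90. Males had 116, 103 and 57.0 CPM at GD45, 175, 146 and 138 CPM at GD60, and 480, 440 and 414 CPM at GD90. The 3 days did not overlap with each other over the 18 libraries. How many of all genes separate the days was not counted, for ATP1B2 or for the other genes described in this way. The means were 102 ± 23.7, 169 ± 25.9 and 458 ± 25.5 CPM (SD, n = 6 for each day).

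Values of the ATP1B3 locus model lay between 88.4 and 135 CPM in the same libraries. Females had 110, 110 and 92.1 CPM at GD45, 94.3, 89.7 and 129 CPM at GD60, and 135, 101 and 113 CPM at GD90. Males had 99.8, 88.4 and 106 CPM at GD45, 102, 106 and 116 CPM at GD60, and 108, 113 and 103 CPM at GD90. All days overlapped, with means of 101 ± 9.08, 106 ± 14.6 and 112 ± 12.2 CPM (SD, n = 6 for each day). In male GD45 replicate 17, where ATP1B1 and ATP1B2 were lowest, the model had 106 CPM, within the CPM range of the other GD45 libraries. The fits further scale each library by a normalization factor (TMM). That of this library was the lowest of the 18, at 0.849, against 1.02 to 1.07 in the other GD45 libraries. With CPM divided by these factors, this library is the highest of the GD45 libraries for the model.

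**Figure D1:**
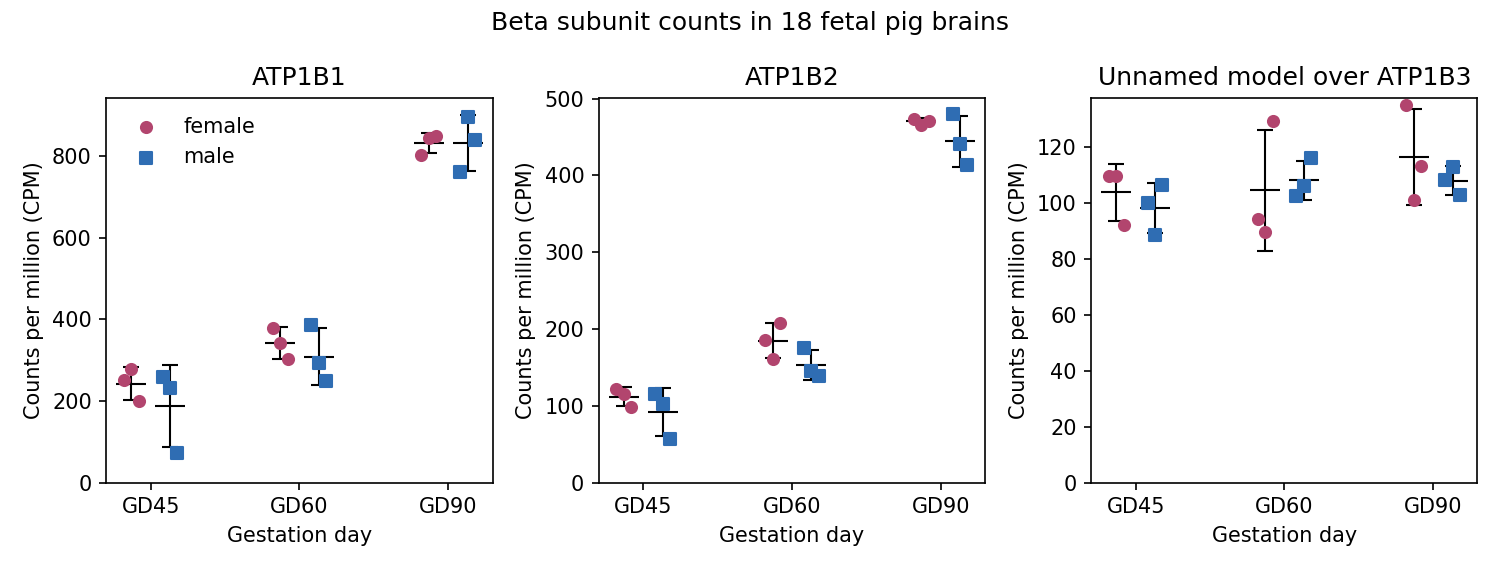
CPM (y axis, linear from 0) of ATP1B1, ATP1B2 and the ATP1B3 locus model in each of the 18 libraries by gestation day (x axis), with females as circles and males as squares, and the mean and SD of 3 libraries as black bars. ATP1B1 and ATP1B2 stand highest in all GD90 libraries, the ATP1B3 locus model stays between 88.4 and 135 CPM throughout, and male GD45 replicate 17 is the low square of ATP1B1 at 73.0 CPM.

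Levels were compared between the genes per length, and the order of ATP1B2 and ATP1B3 depended on the length used. With the deposited gene lengths of 2912, 3058 and 8897 bases, the mean FPKM at GD45 was 73.9 for ATP1B1, 33.3 for ATP1B2 and 11.3 for the ATP1B3 locus model. At GD90 the values were 286, 150 and 12.6 FPKM. The length of the ATP1B3 locus model holds a last exon of 6892 bases that had 76 reads over all libraries, while the whole model had 1355 or more reads in each library. With RefSeq transcript lengths of 1235, 3095 and 1598 bases, ATP1B1 had 174 ± 60.4 FPKM, ATP1B2 32.9 ± 7.66 FPKM and the ATP1B3 locus model 63.2 ± 5.68 FPKM at GD45 (SD, n = 6). On this scale ATP1B2 and the ATP1B3 locus model overlapped at GD60, between 44.6 and 67.1 FPKM and between 56.2 and 81.0 FPKM. At GD90 ATP1B2, at 148 ± 8.24 FPKM, was above the ATP1B3 locus model, at 70.2 ± 7.62 FPKM, in every library. ATP1B1 was the highest of the 3 at GD60 and GD90 on both scales. The exception at GD45 was male replicate 17 with RefSeq lengths, where the locus model had 66.5 FPKM and ATP1B1 59.1 FPKM. ATP1B4, a family member better known from muscle, had 0 reads in all but 2 libraries, and a library with 0 reads allows up to 3.

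The first comparison asked how each sex changed between gestation days, with edgeR's quasi-likelihood test over 16325 genes and Benjamini-Hochberg adjusted p-values. From GD60 to GD90 ATP1B1 rose in females by a log2 fold change of 1.37 (SE 0.27, adjusted p = 0.00109) and in males by 1.42 (SE 0.27, adjusted p = 0.00077). ATP1B2 rose over the same interval by 1.43 in females (SE 0.17, adjusted p = 1.118e-05) and by 1.52 in males (SE 0.17, adjusted p = 6.26e-06). As folds these were 2.59 for ATP1B1 and 2.69 for ATP1B2 in females, and 2.68 and 2.88 in males. Values for the ATP1B3 locus model were 0.23 in females (adjusted p = 0.371, approximate 95% interval -0.12 to 0.59) and -0.02 in males (adjusted p = 0.93, interval -0.38 to 0.33). Thus 2 of the 3 genes were called in each sex, where 27.1% of all genes were called in females and 34.5% in males.

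From GD45 to GD60, ATP1B2 alone among the 3 was called, and rose on the log2 scale by 0.74 in females (SE 0.16, adjusted p = 0.0114) and 0.74 in males (SE 0.16, adjusted p = 0.0133). In this interval 7.22% of all genes were called in females and 5.61% in males. ATP1B1 had 0.51 in females (SE 0.26, adjusted p = 0.28) and 0.74 in males (SE 0.26, adjusted p = 0.127). Without male GD45 replicate 17, ATP1B1 was called in females at 0.50 (SE 0.14, adjusted p = 0.025) and had 0.38 in males (SE 0.16, adjusted p = 0.141). Without both fetuses of the GD45 litter of 8, ATP1B1 was not called, at 0.35 in females (adjusted p = 0.0986) and 0.40 in males (adjusted p = 0.0712). ATP1B2 remained called without male GD45 replicate 17, at 0.73 in females (adjusted p = 0.00077) and 0.54 in males (adjusted p = 0.0215). It was no longer called in females without female GD45 replicate 18 (0.64, adjusted p = 0.0695), in males without male GD60 replicate 4 (0.67, adjusted p = 0.0513), and in males with only the 6 libraries compared in the fit (0.72, adjusted p = 0.251). For the ATP1B3 locus model the values were 0.04 in females (adjusted p = 0.94) and 0.10 in males (adjusted p = 0.833).

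Over the whole span from GD45 to GD90, ATP1B1 rose by 1.88 (SE 0.27, adjusted p = 3.59e-05) in females and by 2.16 (SE 0.27, adjusted p = 8.867e-06) in males on the log2 scale. ATP1B2 rose by 2.17 (SE 0.17, adjusted p = 4.83e-08) in females and by 2.26 (SE 0.17, adjusted p = 3.731e-08) in males, a 4.51-fold and a 4.79-fold rise. The ATP1B3 locus model was at 0.27 (interval -0.09 to 0.63, adjusted p = 0.256) and 0.08 (interval -0.28 to 0.43, adjusted p = 0.752). Of all genes, 38.8% were called in females and 47.8% in males.

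Since littermates share a mother, the counts of each pair were also summed, which leaves 3 litters a day. In this fit of 17003 genes ATP1B2 rose by 0.74 from GD45 to GD60 (SE 0.14, adjusted p = 0.0058), by 1.45 from GD60 to GD90 (SE 0.14, adjusted p = 2.396e-05) and by 2.19 from GD45 to GD90 (SE 0.14, adjusted p = 5.26e-07) on the log2 scale. ATP1B1 had 0.59 from GD45 to GD60 (SE 0.19), which missed the threshold (adjusted p = 0.0679), and rose by 1.38 (adjusted p = 0.00029) from GD60 to GD90 and by 1.98 (adjusted p = 1.029e-05) over both intervals. The likelihood ratio test and DESeq2 called ATP1B1 for GD60 against GD45 (adjusted p = 0.0239 and 0.0198). In litters the ATP1B3 locus model had 0.09, 0.09 and 0.18 with adjusted p-values of 0.705, 0.599 and 0.248. Of all genes tested, 11.6%, 37.4% and 53.3% were called in the 3 contrasts.

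**Figure D2:**
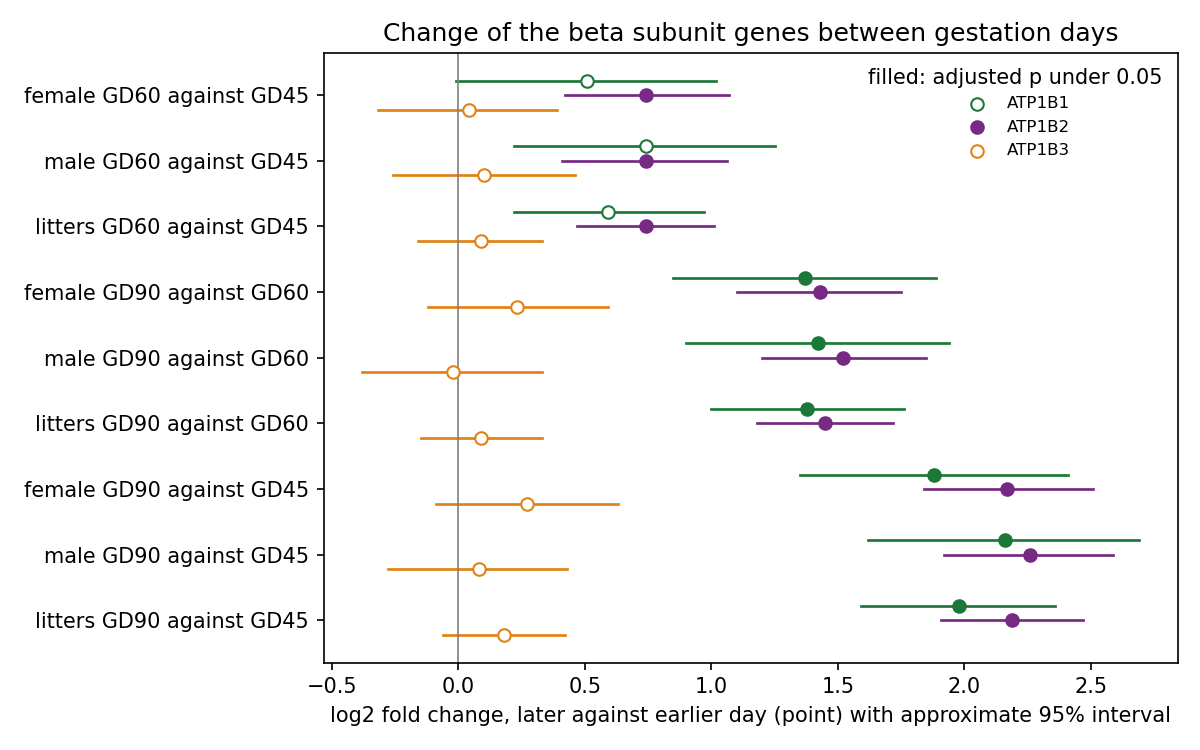
Log2 fold change of each gene between gestation days (x axis) in females, in males and in summed litters (y axis), with points for the edgeR estimate, lines for the approximate 95% interval and filled points for adjusted p under 0.05. Here ATP1B3 is the unnamed model over its locus. ATP1B2 is called in all 9 contrasts, ATP1B1 in the 6 that end at GD90, and the ATP1B3 locus model in none.

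The day contrasts go with large shifts in markers of brain cell types, summed as CPM per library. Oligodendrocyte markers (4 of 5 in the table) had a median of 35.7 CPM at GD45 (18.6 to 42.7), 49.2 at GD60 (35.3 to 72.8) and 2145 at GD90 (1721 to 2968). Astrocyte markers (5 of 6) went from 345 (186 to 391) to 551 (432 to 592) and 1656 (1604 to 2083). Progenitor and radial glia markers (5 of 7) went the other way, from 594 (520 to 731) to 308 (239 to 336) and 144 (127 to 191). Neuronal markers (7 of 7) had 7025 (6393 to 7763), 8035 (7294 to 9723) and 8402 (7849 to 9647). Microglial markers (5 of 6) had medians of 65.0, 72.3 and 139 CPM, endothelial markers (5 of 5) 336, 336 and 394 CPM, and connective tissue markers (4 of 4) 898, 830 and 1005 CPM. Choroid plexus markers (6 of 6) had 1296, 935 and 591 CPM, erythroid markers (4 of 6) 341, 200 and 161 CPM, and skeletal muscle markers (4 of 4) 5.83, 10.1 and 18.8 CPM. No gene of these lists that the table holds was at 0 in every library. The part of these shifts in the rise of ATP1B1 and ATP1B2 was not tested, and in whole brains fewer cells of a type and less RNA per cell cannot be told apart.

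Male GD45 replicate 17, the lowest library for ATP1B1 and ATP1B2, was also lowest for the astrocyte (186 CPM), oligodendrocyte (18.6 CPM) and connective tissue (483 CPM) lists of its day and highest for the erythroid (661 CPM), choroid plexus (1532 CPM) and progenitor (731 CPM) lists. In it, 92.3% of the ATP1B2 exon reads lay in the last 2 exons, against 70.0% to 79.0% in the other GD45 libraries. Over days, the median of this 3' share was 76.7% at GD45, 75.6% at GD60 and 67.2% at GD90. At GD90 it lay between 63.9% and 65.7% in males and between 68.8% and 80.3% in females, while the GD45 females had 76.0% to 79.0%. Its part in the results was not tested. With both fetuses of that GD45 litter left out, ATP1B1 still rose from GD60 to GD90 by 1.37 in females and 1.40 in males, and from GD45 to GD90 by 1.72 (adjusted p = 1.106e-07) in females and 1.80 (adjusted p = 6.967e-08) in males.

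Males and females were compared at each day with the same edgeR model. For ATP1B1 the log2 difference of males from females was -0.34 at GD45 (SE 0.26, adjusted p = 0.995), -0.11 at GD60 (SE 0.26, adjusted p = 0.907) and -0.06 at GD90 (SE 0.26, adjusted p = 0.923). Without male GD45 replicate 17 the GD45 value of ATP1B1 became 0.007 (SE 0.16). ATP1B2 had -0.23, -0.24 and -0.14 (SE 0.16 each, adjusted p = 0.995, 0.779 and 0.66). The ATP1B3 locus model had 0.03, 0.09 and -0.17 (SE 0.18 each, adjusted p = 0.995, 0.884 and 0.633). None of the 3 genes was called at any day by edgeR, with 0.169 as the lowest unadjusted p of the 9 values, and over all genes only 0.0919%, 0.098% and 0.098% were called. The approximate 95% intervals of ATP1B1 were -0.85 to 0.18 at GD45, -0.62 to 0.41 at GD60 and -0.57 to 0.46 at GD90. Those of ATP1B2 were -0.55 to 0.10, -0.56 to 0.09 and -0.46 to 0.18.

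Whether the change over days differed between the sexes was tested as an interaction, the male change less the female change. ATP1B1 had 0.23 (SE 0.37) for GD60 against GD45, 0.05 (SE 0.37) for GD90 against GD60 and 0.28 (SE 0.37) for GD90 against GD45. ATP1B2 had -0.01, 0.10 and 0.09 (SE 0.23 each), and the ATP1B3 locus model 0.06, -0.26 and -0.19 (SE 0.26 each). The lowest adjusted p of these 9 values was 0.552 with edgeR. In each of the 3 contrasts 0% of genes (0 of 16325) were called by the quasi-likelihood test, although 333, 3232 and 1395 genes had an unadjusted p under 0.05. The likelihood ratio test called 0, 129 and 1 genes and DESeq2 0, 277 and 1.

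The deposited exon counts show where along each gene the reads lay. ATP1B1 has 13 annotated exons, of which 7 had no counted read in any library. The 4 most upstream, between 81948596 and 81997714, belong to the transcript ATP1B1-201, which had 0 reads of its own, whereas ATP1B1-202, which starts at 81937025, had 4043. The other 3 exons at 0 overlap a further exon of the gene. The exon table held 20.1% of the ATP1B1 gene counts, 85.9% of those of ATP1B2 and 18.8% of those of the ATP1B3 locus model. Most reads of ATP1B1 and of the ATP1B3 locus model are therefore missing from exon values, and the cause was not tested.

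For GD90 against GD45, 5 of the 6 tested ATP1B1 exons rose in females and 6 of 6 in males. Log2 fold changes of all 6 lay between 1.55 and 2.23 in females, with 1.55 for the uncalled exon, and between 2.01 and 2.60 in males. The exon at 81916989 to 81917173 had the most counted reads of ATP1B1, and went from 26.9 ± 11.3 at GD45 to 44.7 ± 7.53 at GD60 and 118 ± 19.0 exon CPM at GD90 (SD, n = 6). Over all exons tested, 9.01% were called in females and 21.6% in males. Of the 9 exons of ATP1B2, 8 rose in each sex, with log2 fold changes of all 9 between 1.74 and 2.52 in females and between 1.41 and 2.73 in males. The exon that was not called, of 56 bases, had the fewest reads (164 in all). The last exon of ATP1B2, at 52931404 to 52932637, held the most reads and went from 111 ± 16.8 to 173 ± 26.5 and 398 ± 87.8 exon CPM.

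Between GD60 and GD90, 4 of 6 ATP1B1 exons and 4 of 9 ATP1B2 exons rose in females, where 3.58% of exons were called. In males, where 8.74% were called, 5 of 6 and 7 of 9 rose. From GD45 to GD60 no exon of either gene was called by edgeR, although 2 ATP1B1 exons and 5 ATP1B2 exons had an unadjusted p under 0.05 in females and 2 of each gene in males, with 0.167% of all exons called in females and 0.0262% in males. None of the 6 tested exons of the ATP1B3 locus model was called by edgeR in any of the 6 contrasts, and 2 had an unadjusted p under 0.05, both for GD90 against GD60 in females. Its exon at 82713101 to 82713285, with the most reads, had 12.4 ± 1.46, 15.0 ± 6.84 and 13.2 ± 1.89 exon CPM. The single ATP1B2 transcript was called in all contrasts but GD60 against GD45 in males (0.70), and ATP1B1-202 was called for GD90 against GD45 in both sexes (2.30 and 2.27) and for GD90 against GD60 in males (1.60). The 1 tested transcript of the ATP1B3 locus model was called in none. Of all transcripts, 2.17% and 1.56% were called for GD60 against GD45 in females and males, 12.9% and 18.7% for GD90 against GD60, and 22.9% and 32.5% for GD90 against GD45.

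**Figure D3:**
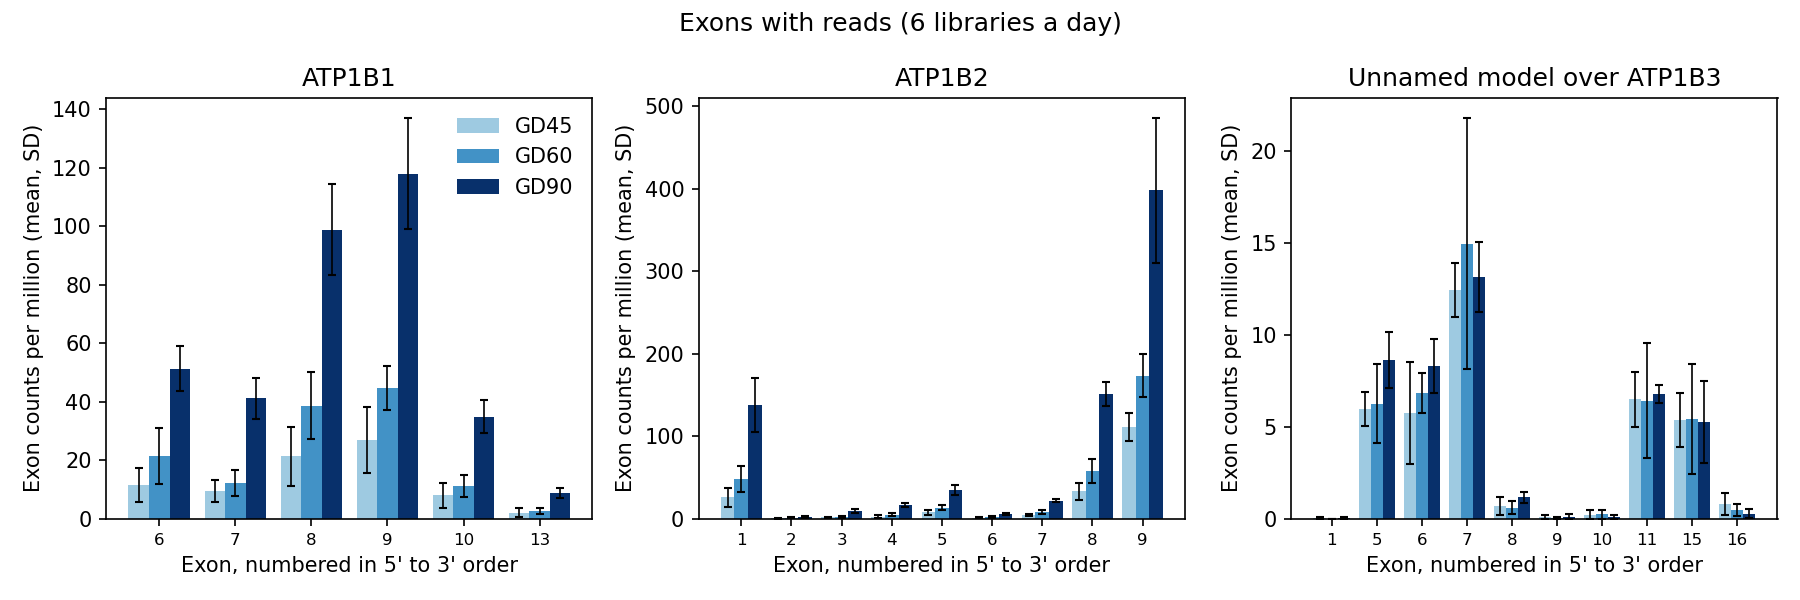
Exon CPM, scaled to the exon counts of the library (y axis, mean with SD over the 6 libraries of a day) for every exon with reads, numbered from the 5' end of the gene (x axis), at GD45, GD60 and GD90. The bars of ATP1B1 and ATP1B2 are highest at GD90 in each exon drawn, up to 118 in ATP1B1 and 398 in ATP1B2, while those of the ATP1B3 locus model stay at 15.0 or less at every day.

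The balance of the beta subunits was expressed as the share of each in their summed FPKM per library. With the genes found by name and deposited lengths, ATP1B1 took 67.6% ± 5.19 of the beta FPKM at GD45, 66.8% ± 3.44 at GD60 and 65.6% ± 2.23 at GD90 (SD, n = 6). ATP1B2 took nearly all of the rest. Single libraries ranged from 57.4% to 71.6%, from 60.5% to 69.8% and from 62.4% to 68.1%, so the days overlapped. The difference of GD90 from GD45 was -2.03 percentage points (exact two-sided permutation test, p = 0.426, adjusted p = 0.701 over 3 share tests). Leaving out male GD45 replicate 17, with the lowest ATP1B1 share, made the difference -4.08 points (exact permutation test, adjusted p = 0.039). Over litter means, 3 against 3, no share test could pass, since the smallest p is 0.10. The size of the share depended on the length used. With RefSeq transcript lengths and the same genes, ATP1B1 took 83.2% at GD45, 82.7% at GD60 and 82.0% at GD90.

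Adding the ATP1B3 locus model, a choice made after its values were seen and with RefSeq transcript lengths, added a further component to the beta sum. Its share of beta FPKM was 25.4% ± 10.3 at GD45, 17.6% ± 3.71 at GD60 and 7.88% ± 0.871 at GD90 (SD, n = 6). The GD45 libraries lay at 20.0% to 23.0% apart from male replicate 17 at 46.2%, those of GD60 at 13.8% to 22.8% and those of GD90 at 7.06% to 9.51%, below all earlier libraries. The level of the locus model itself did not fall, at 101, 106 and 112 CPM. Its lower share goes with the higher levels of the other genes in the sum, so these shares are given as a description. Some tests of these shares, chosen after seeing the data, are given with the alternatives below. ATP1B1 then took 62.4% ± 10.6, 68.2% ± 4.58 and 75.5% ± 1.84, and ATP1B2 12.3% ± 0.572, 14.2% ± 1.45 and 16.6% ± 1.27. Without male replicate 17, the GD45 share was 66.7% ± 1.73 for ATP1B1 and 21.2% ± 1.28 for the ATP1B3 locus model (SD, n = 5). With deposited lengths the ATP1B3 share was smaller, 10.7% at GD45, 6.82% at GD60 and 2.82% at GD90. On those lengths the ATP1B1 share was 60.6% ± 7.75, 62.3% ± 3.94 and 63.8% ± 2.27, and 63.7% ± 1.67 at GD45 without male replicate 17, so its larger difference between days depended on the RefSeq lengths.

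**Figure D4:**
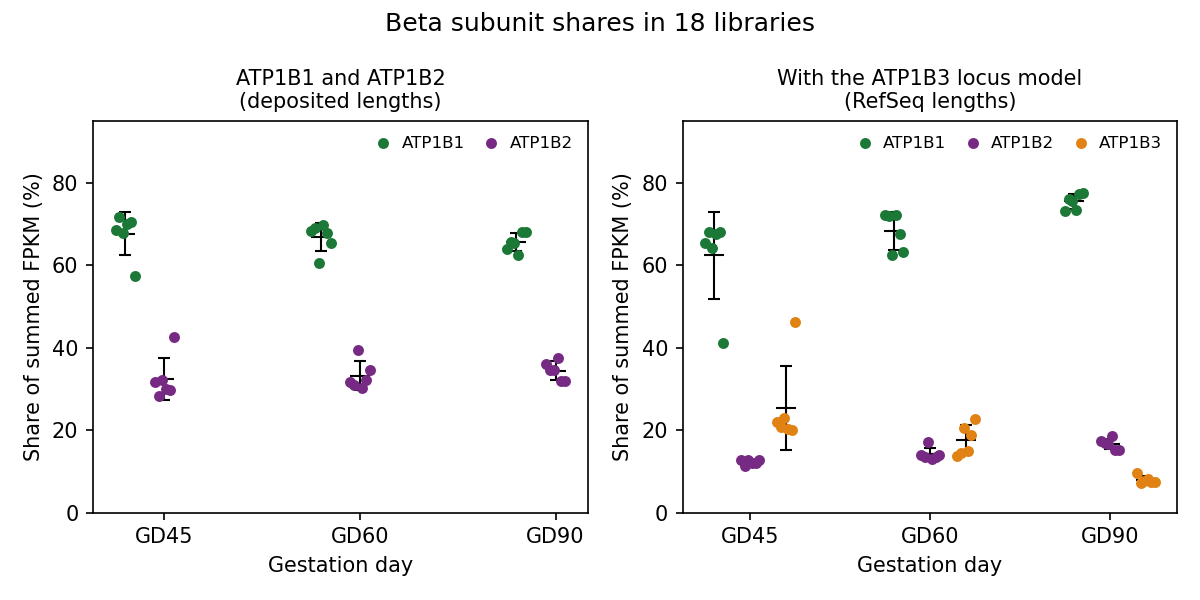
Share of each subunit in the summed FPKM (y axis, percent) at each gestation day (x axis), for ATP1B1 and ATP1B2 with deposited lengths, and for the beta subunits with the ATP1B3 locus model and RefSeq lengths. Points are libraries and black bars the mean and SD of 6. The ATP1B1 share overlaps between days on the left, and the ATP1B3 share reaches 9.51% or less in all GD90 libraries on the right.

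The lists of pump and pump-partner genes held 27 genes, of which 25 were found in the table and 18 could be tested. FXYD1 was not found. FXYD7 was not counted as found, since the unnamed model over it covers only 35.6% of its RefSeq exon bases. FXYD2, FXYD5 and FXYD6 are, like ATP1B3, unnamed models matched to their RefSeq loci. FXYD3 is also unnamed in the counts and was identified by its gene identifier. Genes with a symbol were kept whatever part of their RefSeq exon bases was covered, which was lowest for NKAIN2 at 11.2%. From GD45 to GD90, 9 were higher and 1 lower in females and 9 higher and 2 lower in males. Over all genes tested, 38.8% were called in females and 47.8% in males. The median log2 fold change was 1.88 in females and 2.16 in males for the 3 beta genes and 1.00 and 1.41 for the 9 calcium pumps, beside -0.01 and -0.01 over all genes tested.

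All 4 plasma membrane calcium pumps, which export calcium, rose in both sexes from GD45 to GD90, where 20% of all genes were called higher in females and 23.4% in males. ATP2B2, a fast pump of neurons, went from 62.0 ± 14.3 to 103.9 ± 25.8 and 306 ± 72.6 CPM (SD, n = 6) and rose by 2.06 in females and 2.60 in males from GD45 to GD90. ATP2B1 rose by 1.20 and 1.69, ATP2B3 by 1.00 and 1.52 and ATP2B4 by 1.50 and 1.98. ATP2A2, the pump of the endoplasmic reticulum, rose by 0.98 and 1.41. ATP2A3 was called in females (0.82) and had 0.41 in males, where it was called without male GD45 replicate 17 (0.67, adjusted p = 0.00687). ATP2C1, a Golgi pump, had 0.20 in females and was called in males at 0.39 (adjusted p = 0.0465). That call was lost on leaving out any 1 of 14 libraries, and without male GD45 replicate 17 the value was 0.17 (adjusted p = 0.219). The interaction was not called for either gene. ATP2A1 and ATP2C2, both under 2.1 CPM in every library, were not called.

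Genes that encode partners of the pump were called in both directions. NKAIN1, which encodes a membrane protein that binds the beta 1 subunit, fell from 75.8 ± 8.95 CPM at GD60 to 29.4 ± 5.92 CPM at GD90, below all earlier libraries, and the log2 fold change from GD45 was -1.49 in females and -1.37 in males. NKAIN4 had -0.65 in females, without a call, and fell by 1.22 in males. Without male GD45 replicate 17 the values of NKAIN4 were -0.65 (adjusted p = 0.0183) and -0.81 (adjusted p = 0.0106), and without female GD60 replicate 15 it was also called in females (adjusted p = 0.0406). NKAIN3 had 0.85 in females and 2.02 in males, called in males only, and ranged from 4.42 to 34.0 CPM among GD90 libraries. NKAIN2 was not called in either sex (0.11 and 0.25), although it was in males without male GD45 replicate 14 (0.40, adjusted p = 0.021). FXYD6, the FXYD gene with the most reads of those found, had 648 ± 79.5, 839 ± 95.6 and 779 ± 109 CPM. It was called for GD90 against GD45 in females (0.54, adjusted p = 0.0261) and not in males (-0.001). The FXYD6 call was lost without female GD45 replicate 18 (0.44), female GD90 replicate 2 (0.46) or female GD90 replicate 9 (0.56). The sex interaction of FXYD6 was -0.54 (adjusted p = 0.531). FXYD5 fell by 0.79 in males from GD60 to GD90 (adjusted p = 0.0332), a call lost without male GD60 replicate 16 (-0.54) or male GD90 replicate 8 (-0.69) or 10 (-0.79). FXYD2, FXYD3 and FXYD4 had 0.681 CPM or less in every library, and the gastric and colonic pump genes ATP4A, ATP4B and ATP12A had 0.661 CPM or less.

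**Figure D5:**
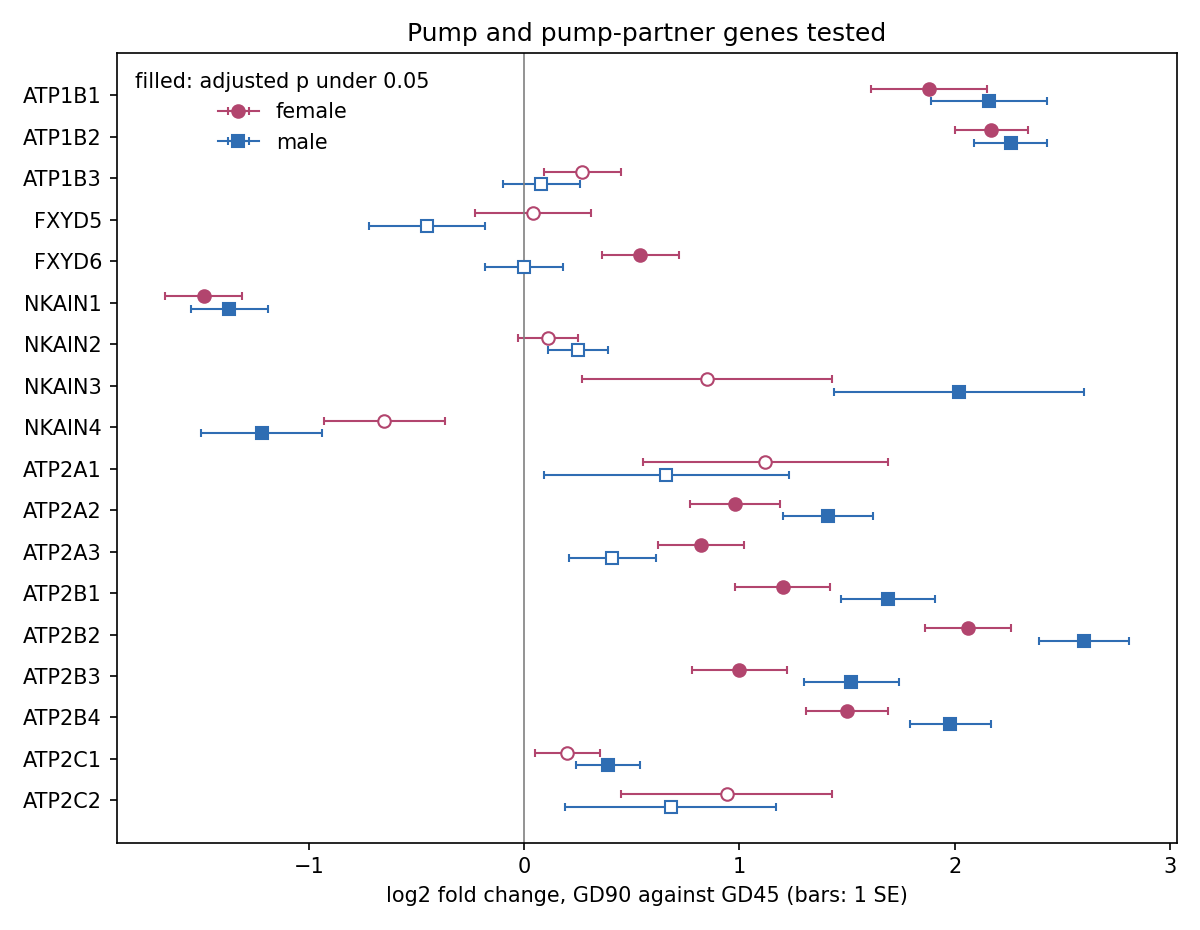
Log2 fold change of GD90 against GD45 (x axis) for the 18 tested genes of the pump lists (y axis), with females as circles, males as squares, bars of 1 SE and filled points for adjusted p under 0.05. The ATP1B1, ATP1B2 and ATP2B genes lie right of 0 in both sexes, NKAIN1 lies left of 0 at -1.49 and -1.37, and ATP1B3, as its locus model, lies near 0.

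The genes with the profiles most like each member were found as the smallest root mean square difference of log2 CPM, centred on the gene mean, over 18 libraries and 9668 genes of at least 10 CPM. ATP1B1 was nearest to DIRAS2 (0.166), a small GTPase, NSF (0.174), which takes SNARE complexes apart, NR1D1 (0.191), PDGFRA (0.2), the receptor that marks oligodendrocyte precursors, and RAB3B (0.209), and ATP1B2 ranked 8th at 0.228, while ATP1B1 ranked 34th among the profiles nearest to ATP1B2. ATP1B2 was nearest to NR1D1 (0.138), SYN1 (0.157), a synaptic vesicle protein, CDS1 (0.163), OSBPL1A (0.165) and SIDT1 (0.172). The ATP1B3 locus model was nearest to UBE2QL1 (0.0844), RHEB (0.087), VDAC2 (0.0886), a channel of the outer mitochondrial membrane, SCG5 (0.0898) and SKP1 (0.0898). Its distance from ATP1B1 was 0.919 and from ATP1B2 0.898. These likenesses are over libraries that share the 3 gestation days and carry no test.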

How the data were processed

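Whole fetal brains were profiled by RNA-seq in 18 libraries. Per the labels and the methods, the authors trimmed reads with Trimmomatic, aligned them to Sscrofa11.1 with HISAT2, counted them with featureCounts and deposited raw read counts per gene, exon and transcript. Strand and multi-mapping options are not given in the sources used here, so overlapping genes are uncertain. The 22 columns were reduced to 18 libraries by summing repeat runs. CPM and FPKM were computed from these counts, the latter with the deposited gene length. Filters used filterByExpr and normalization TMM, in edgeR 4.0.16 (R 4.3.3), with 1 model of 6 groups, quasi-likelihood tests and Benjamini-Hochberg adjustment over all features at 0.05. Replicates are separate fetuses. Shares were compared with exact two-sided permutation tests in scipy, adjusted over the 3 ATP1B1 tests of a setting. With the ATP1B3 locus model in the sum, the adjustment ran over the tests of ATP1B1, ATP1B2 and ATP1B3 together. Some genes of the pump are not reported here. The gene fit was tried on simulated counts for GD90 against GD60 only, in females and in summed litters. The other contrasts, tests and tables were not simulated. Unnamed models were matched to RefSeq loci by exon overlap. Intervals cover counting and replicate error only, and reads are not independent molecules. Members, lists and tests were chosen with earlier results of these data known. The named genes are the members, the list genes called or without overlap, and the 5 nearest profiles. Alternatives were other tests (edgeR's likelihood ratio test, DESeq2 1.42.0), normalizations, filters, units, gene lengths and left-out libraries.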

Additional observations from a re-analysis of the deposited data

Results flagged for a closer look

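Over 15 sets of 6 libraries of a day, each a CPM or share of a subunit gene, 4 values stood apart from the rest by more than Dixon's 95% critical gap, and chance alone marks about 1 in 20 such sets. Male GD45 replicate 17 accounts for 3 of them. It had 57.0 CPM of ATP1B2, against 98.7 to 122 in the other GD45 libraries. Its ATP1B1 share of beta FPKM was 57.4%, against 67.9% to 71.6%, and its ATP1B2 share 42.6%, against 28.4% to 32.1%, which are the same departure seen from both sides. Female GD90 replicate 2 had 135 CPM of the ATP1B3 locus model, against 101 to 113 in the other GD90 libraries.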

How the results depend on the processing

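The log2 rises of ATP1B1 and ATP1B2 from GD60 to GD90 and from GD45 to GD90 were called in both sexes and in litters under every alternative run. ATP1B1 from GD45 to GD60 in litters became called with the likelihood ratio test (0.60), DESeq2 (0.59), no filter on low counts (0.59) and the mean of the sexes over 18 libraries (0.62), and ATP1B2 in males over these days lost its call with only the libraries compared (0.72). The cause was not tested for these or for the following uncalled values, which changed sign. With library size without TMM factors they were 0.0006 for ATP1B1 between the sexes at GD90, 0.01 for the ATP1B2 interaction from GD45 to GD60 and -0.08 for ATP1B3 between the sexes at GD45. Without a filter that ATP1B2 interaction was 0.005. With the trend on gene length removed, ATP1B3 had -0.09 from GD45 to GD60 in females and -0.11 from GD45 to GD90 in males. Without both fetuses of the GD45 litter of 8, the ATP1B2 interaction from GD45 to GD90 was -0.002, and ATP1B3 had -0.07 from GD45 to GD60 in females, -0.26 between the sexes at GD45 and 0.07 for the interaction from GD45 to GD90. From GD45 to GD60 the number of higher pump genes in females was 5 with DESeq2, 4 with the likelihood ratio test and 4 without that litter, in place of 2. In males it was 2 without that litter in place of 1. In litters it was 7 under DESeq2 and 7 under the likelihood ratio test in place of 3. The number lower in females from GD45 to GD90 was 2 without TMM factors and 2 without that litter, in place of 1. The share of all genes called under these alternatives is not given, so these counts are not a result about the lists. With the ATP1B3 locus model in the sum and RefSeq lengths, the ATP1B1 share differed by 5.829 points for GD60 against GD45 (exact permutation test, adjusted p = 0.251). The difference was 7.293 for GD90 against GD60 and 13.12 for GD90 against GD45 (exact permutation test, adjusted p = 0.00325 for each). Without male GD45 replicate 17, GD60 against GD45 was 1.563 and GD90 against GD45 was 8.857 (exact permutation test, adjusted p = 0.502 and 0.00649). With deposited lengths the 3 ATP1B1 differences were 1.671, 1.483 and 3.154, and without that library -1.434, 1.483 and 0.04901, none past the threshold. On those lengths the ATP1B2 share differed by 2.239, 2.518 and 4.757 points in all libraries. Only the last of these passed (exact permutation test, adjusted p = 0.0325). The ATP1B3 share differed by -3.912, -3.997 and -7.91 points (exact permutation test, adjusted p = 0.0438, 0.00974 and 0.00974). These alternatives were chosen after seeing the data. Such differences go with the called rises of ATP1B1 and ATP1B2 beside a locus model without a called change. The share tests with that model are therefore no separate result. They also permute single libraries, although those of a day were taken as littermate pairs, and over litter means no share test could pass.

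Littermates' deviations from their group means correlated between -0.0932 and 0.424, not above 0.1 in every pair, so the pairing was not used. With litter as replicate block the ATP1B2 interaction from GD45 to GD60 was 0.02, and no call of a member between the sexes or for an interaction changed.

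Leaving out each library in turn gave these log2 ranges. ATP1B1 ranged from 0.36 to 0.62 for GD60 against GD45 in females, from -0.60 to 0.007 between the sexes at GD45, from -0.13 to 0.006 at GD90, and from -0.12 to 0.49, -0.06 to 0.19 and -0.08 to 0.54 for the interactions of GD60 with GD45, GD90 with GD60 and GD90 with GD45. ATP1B2 ranged from 0.60 to 0.85 for GD60 against GD45 in females, from 0.54 to 0.89 in males, and from -0.20 to 0.15, -0.04 to 0.20 and -0.11 to 0.24 for the same interactions. ATP1B3 ranged from -0.20 to 0.15 for GD60 against GD45 in females and from -0.01 to 0.26 in males, from -0.10 to 0.07 for GD90 against GD60 and from -0.04 to 0.24 for GD90 against GD45 in males, from -0.15 to 0.14 between the sexes at GD45 and from -0.03 to 0.32 at GD60, and from -0.05 to 0.30 for the first interaction. Leaving out each litter, its GD60 against GD45 value ranged from -0.08 to 0.17. In points, the ATP1B1 share ranged from -2.884 to 0.4241 for GD60 against GD45 and from -4.079 to -1.236 for GD90 against GD45.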
